A study of Mus musculus with 8 samples.

Results

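Transcripts of 10 genes typical of tissue-resident macrophages were followed in RNA from CD8 T cells sorted out of mouse tumours. The genes are Fcrls, F13a1, Mrc1, Cd163, Selenop, Stab1, Maf, Lyve1, Folr2 and Pf4, and they are 10 of the 19673 genes listed in the authors' table. They were picked by name, with the difference between hosts in these same libraries already known. That difference is therefore given for them as a description, and nothing is read from their p-values. Tumours had been grown from Py8119 mammary tumour cells in hosts of 2 genotypes, Mtdh KO and WT, with 4 biological replicates each, written as KO or WT libraries 1 to 4. Live CD45+CD3e+CD8+ cells were sorted, and the implanted cell line was the same in both groups. Strain, age, sex, the allele of the knockout and the number of cells per sort are not stated in the labels used here. Values are DESeq2-normalized read counts per gene, ± gives the SD over the 4 libraries of a group, and log2 fold changes are of KO over WT on log2(value + 1).

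Macrophages that settle in a tissue for long periods share a programme of uptake and repair. They carry scavenger and lectin receptors that clear debris, haemoglobin and modified lipoproteins, they secrete growth and matrix factors, and the transcription factor MAF helps to maintain this state. Macrophages recruited from blood monocytes under interferon instead turn towards antigen presentation and chemokine production. None of the 10 genes is a defining gene of CD8 T cells, although MAF is also made by some T cells, PF4 by platelets, LYVE1 by lymphatic endothelium and selenoprotein P by liver.

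The libraries held an estimated 16400000 to 29600000 reads, but far fewer distinct cDNA fragments, between 121000 and 595000. A single fragment was worth a normalized value of 142 in KO library 2, the least complex, and 25.5 in WT library 3, the most complex. Mtdh itself ranged over 2538 to 5118 (KO) and 6407 to 12745 (WT), without overlap. Cd8a, the defining gene of the sort, was detected in every library, with 7561 to 13355 (KO) and 1565 to 6545 (WT). The macrophage gene Lyz2 was also high in every library, with 75242 to 186897 (KO) and 130076 to 211543 (WT). The sorted RNA thus held macrophage transcripts throughout. In bulk RNA, fewer macrophages and less of a transcript per macrophage cannot be told apart.

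All 10 genes passed the minimum mean of 10 and entered the fit over 16120 genes. Their levels fell into a set of 6 abundant genes, with a mean over all libraries of at least 1000 (Fcrls, F13a1, Mrc1, Selenop, Stab1 and Maf), and a set of 4 sparse ones (Cd163, Lyve1, Folr2 and Pf4). The fitted log2 fold change of KO over WT was below 0 for 10 of 10, as for 56.6% of all genes. The median was -1.16, or -0.97 over the 6 abundant genes, beside -0.12 over all genes tested. All 4 KO libraries lay below all 4 WT libraries for 5 of the 10, beside 2.09% of all genes. Fcrls and F13a1 were picked in part because limma called them lower at an adjusted p under 0.05, as it did 0.0248% of all genes, and each lost that call in 7 of 20 alternatives. Both lost it without KO library 4, WT library 1 or WT library 3, with a minimum mean of 50 and when scaled to pan-macrophage genes. Fcrls also lost it without KO library 2 and F13a1 without WT library 2. These counts describe how the genes were picked. With 1 library left out at a time, 9 or 10 of the 10 stayed below 0 and 5 to 7 did not overlap. The shares over all genes were not counted for these smaller sets. Groups part more easily there, so the 2.09% does not apply to them.

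Stretches of genome just upstream of the start sites of the 5 abundant genes with an entry in the RefSeq promoter table are shown here. Each run is the 250 bases before the start, 5′ to 3′ on the gene's strand, on build GRCm38.p6. Capitals mark GAGGAA or its reverse complement TTCCTC, the core bound by PU.1 (the myeloid lineage factor) and other ETS proteins, and the STAT6 motif, TTC and GAA set 4 bases apart. Among these 5 runs the latter matched in Selenop alone.
Fcrls, chr3:87263525-87263774, - strand: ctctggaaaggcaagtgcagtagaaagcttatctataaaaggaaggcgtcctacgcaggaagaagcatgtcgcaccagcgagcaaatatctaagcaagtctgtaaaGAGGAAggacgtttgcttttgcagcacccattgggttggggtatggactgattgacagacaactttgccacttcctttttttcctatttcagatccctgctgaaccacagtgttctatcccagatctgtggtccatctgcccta
F13a1, chr13:37050245-37050494, - strand: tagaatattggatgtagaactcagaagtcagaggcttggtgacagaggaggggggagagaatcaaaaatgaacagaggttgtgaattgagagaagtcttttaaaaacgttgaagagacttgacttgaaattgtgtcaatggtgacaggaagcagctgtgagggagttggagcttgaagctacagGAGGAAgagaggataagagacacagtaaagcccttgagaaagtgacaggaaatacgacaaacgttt
Mrc1, chr2:14229164-14229413, + strand: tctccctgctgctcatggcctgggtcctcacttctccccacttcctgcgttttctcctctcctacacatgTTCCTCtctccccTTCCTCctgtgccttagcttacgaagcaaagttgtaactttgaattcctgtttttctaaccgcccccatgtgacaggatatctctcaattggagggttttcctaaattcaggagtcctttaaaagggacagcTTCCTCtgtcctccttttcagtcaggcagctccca
Selenop, chr15:3270517-3270766, + strand: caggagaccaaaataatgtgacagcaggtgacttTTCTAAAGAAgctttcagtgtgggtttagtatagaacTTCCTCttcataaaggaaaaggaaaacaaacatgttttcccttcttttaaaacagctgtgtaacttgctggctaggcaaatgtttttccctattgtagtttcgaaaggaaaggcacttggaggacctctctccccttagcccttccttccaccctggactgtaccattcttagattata
Stab1, chr14:31168642-31168891, - strand: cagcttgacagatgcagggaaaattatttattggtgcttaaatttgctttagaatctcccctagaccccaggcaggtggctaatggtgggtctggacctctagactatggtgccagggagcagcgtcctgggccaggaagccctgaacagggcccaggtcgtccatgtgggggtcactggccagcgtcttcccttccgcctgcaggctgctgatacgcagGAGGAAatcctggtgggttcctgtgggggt
The table held windows for 8 of the 10 genes, 12 windows in all. On either strand GAGGAA occurred in 7 of the 12 windows, and in 23.3% of 32851 windows of the same length across the genome. In F13a1 the other listed start site lacked it. In Selenop the last listed start site lacked it, while an overlapping window held the same copy as the run shown. That copy is thus counted more than once among the 7 windows. By gene, the core occurred in 6 of the 8. The recognition core of MAF, TGCTGAC, was found in 0 of the 12 windows and in 3.81% of all windows. The STAT6 motif was found in 1 of the 12 and in 5.85% of all windows. No other motif was searched, and the motifs do not overlap each other in these runs.

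Among surface receptors for uptake, Mrc1, the mannose receptor that binds glycans and collagen (ENSMUSG00000026712, mm39 chromosome 2, 14234203 to 14336868), was the most abundant. Its KO values were 12364, 10953, 6982 and 10703, and its WT values were 19912, 15793, 16006 and 15259 in libraries 1 to 4. The lowest WT library lay above the highest KO library, and KO library 3 stood lowest. Means were 10251 ± 2298 (KO) and 16743 ± 2136 (WT), a log2 fold change of -0.73 (SE 0.21).

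Stab1, the scavenger receptor stabilin-1 (ENSMUSG00000042286, chromosome 14, 30860970 to 30890598), had KO values of 5379, 3257, 2905 and 3957. Its WT values were 9510, 8074, 8135 and 4863. The groups overlapped at a single point, since KO library 1 lay above WT library 4. Means were 3874 ± 1094 (KO) and 7646 ± 1970 (WT), a log2 fold change of -0.98 (SE 0.24).

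Fcrls, an Fc receptor-like scavenger receptor known from microglia and other resident macrophages (ENSMUSG00000015852, chromosome 3, 87158065 to 87171045), had KO values of 1746, 1169, 1330 and 1323. Its WT values were 7107, 2946, 4774 and 2548. The KO libraries were tightly grouped and all lay below WT, whereas the WT libraries spread widely, with library 1 highest. The SD of log2 values was 0.24 in KO and 0.68 in WT. The log2 fold change was -1.54 (SE 0.29), or -1.26 without WT library 1.

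Of the secreted products, Selenop, the plasma carrier of selenium (ENSMUSG00000064373, chromosome 15, 3298029 to 3309990), was the highest of the 10 genes. Its KO values were 18128, 7903, 9889 and 13553, and its WT values were 28098, 21490, 24499 and 19177. The gap between the groups was narrow, from 18128 in KO library 1 to 19177 in WT library 4. The log2 fold change was -0.97 (SE 0.24).

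F13a1, the catalytic subunit of coagulation factor XIII, which crosslinks fibrin and matrix (ENSMUSG00000039109, chromosome 13, 37051152 to 37234220), had KO values of 10344, 10319, 3799 and 8324. Its WT values were 21021, 16916, 20826 and 18937. Here WT was the tight group, with an SD of log2 values of 0.15, and KO the wide one, at 0.69. That spread in KO came with library 3, the lowest of all. The log2 fold change was -1.34 (SE 0.26), or -1.01 without KO library 3.

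Maf, the transcription factor of the set (ENSMUSG00000055435, chromosome 8, 116409681 to 116434533), had KO values of 8177, 5802, 3127 and 8754. Its WT values were 12700, 11559, 9906 and 10016. The groups did not overlap, and the nearest pair was KO library 4 (8754) and WT library 3 (9906). The log2 fold change was -0.87 (SE 0.26), or -0.56 without KO library 3, a change of over 1.5 times.

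**Figure D1:**
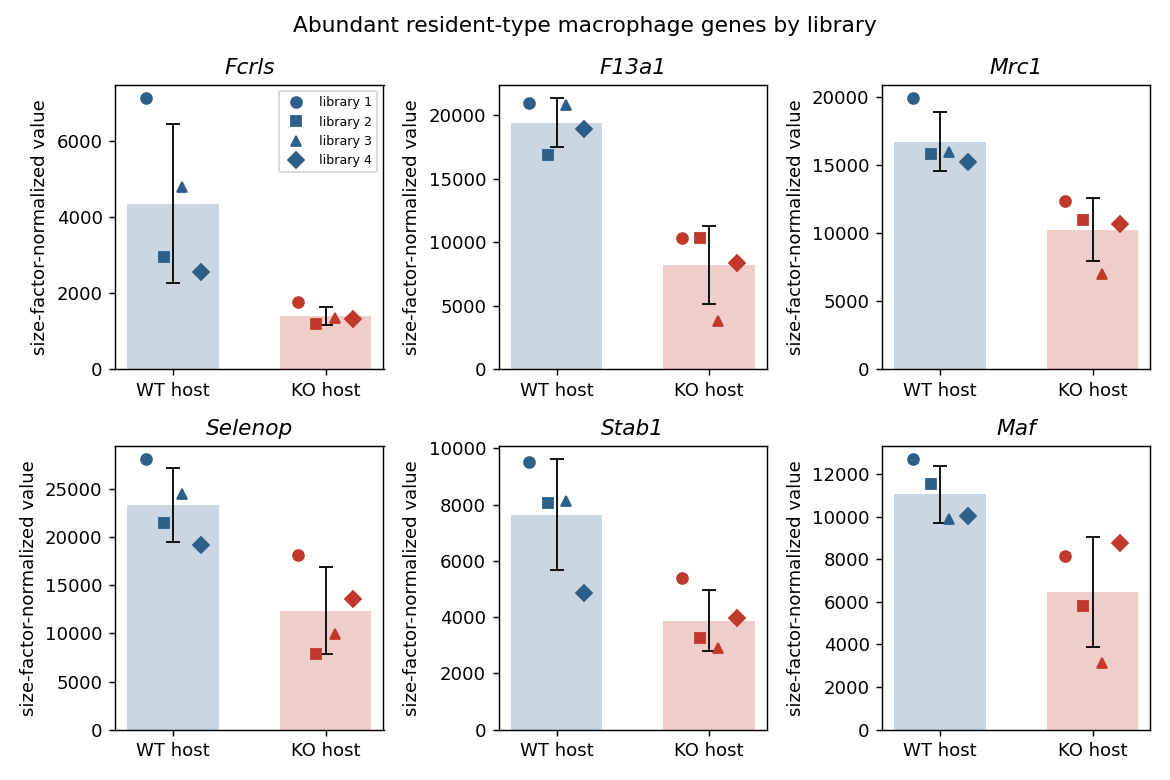
DESeq2-normalized values of the 6 abundant genes in WT and KO hosts. Each marker is 1 library, bars are means and error bars the SD over 4 libraries. KO markers lie below all WT markers in each panel except Stab1, where KO library 1 (5379) lies above WT library 4 (4863).

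The 4 sparse genes rest on few molecules. Cd163, the receptor for haptoglobin-haemoglobin complexes (ENSMUSG00000008845, chromosome 6, 124281615 to 124307486), had KO values of 472, 2.20, 20.8 and 63.9, and WT values of 363, 426, 692 and 674. KO library 1 lay within the WT range and the other 3 KO libraries below it. A single fragment was worth 38.1 in KO library 4 and 43.5 in KO library 3, so these values rest on hardly any molecules. Without KO library 2, the log2 fold change moved from -3.76 to -2.57.

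Lyve1, the hyaluronan receptor (ENSMUSG00000030787, chromosome 7, 110449814 to 110462446), had KO values of 195, 0, 122 and 21.3 and WT values of 94.0, 484, 354 and 553. The groups overlapped through WT library 1, and the log2 fold change moved from -3.51 to -1.92 without KO library 2. Folr2, the folate receptor of macrophages (ENSMUSG00000032725, chromosome 7, 101489195 to 101506401), had KO values of 112, 0, 169 and 341 and WT values of 115, 100, 451 and 297. The overlap was broad. Its log2 fold change of -1.98 became -0.09 without KO library 2, where the gene was listed at 0. Pf4, the chemokine platelet factor 4 (ENSMUSG00000029373, chromosome 5, 90920294 to 90921242), had KO values of 291, 2.20, 87.0 and 240 and WT values of 0, 174, 416 and 679. Its log2 fold change of -0.33 turned to 1.13 without KO library 2 and to -2.46 without WT library 1. Among KO libraries, library 2 was the lowest for each of the 4 genes, and it was also the least complex library. A fit with the log2 estimated fragment number as a covariate was added after seeing the data. In it the log2 fold changes were -3.01 for Cd163, -2.37 for Lyve1, -0.09 for Folr2 and 1.67 for Pf4. Beyond that fit, the part of complexity in these values was not tested.

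**Figure D2:**
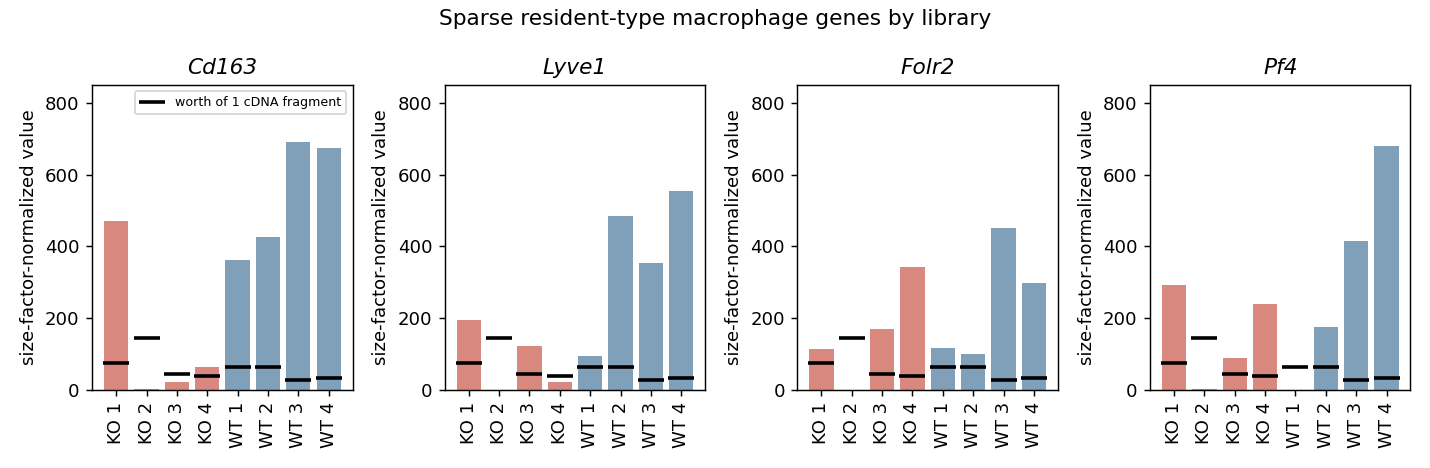
DESeq2-normalized values of Cd163, Lyve1, Folr2 and Pf4 in each library, with a black dash at the estimated worth of 1 cDNA fragment in that library. KO library 2, where a fragment is worth 142, lies at 0 to 2.20 for all 4 genes.

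Levels of the 10 genes were also compared per kilobase of exon. Selenop led in both groups, with 4352 ± 1582 (KO) and 8204 ± 1359 (WT) per kilobase. Then came F13a1 and Mrc1, whose WT levels per kilobase, 2882 ± 285 and 2628 ± 335, did not differ beyond their spread. In KO the order of these 2 was turned, with 1216 ± 457 for F13a1 and 1609 ± 361 for Mrc1. These means lay within the spread between libraries, but Mrc1 stood above F13a1 per kilobase in each KO library. Fcrls in WT (1861 ± 892) and Maf in WT (1340 ± 162) did not differ beyond their spread either, nor did Maf (784 ± 311) and Fcrls (596 ± 106) in KO. Stab1 reached 743 ± 191 in WT and 377 ± 106 in KO. The 4 sparse genes lay lowest per kilobase in WT, with Pf4 (440 ± 410) above Folr2 (156 ± 108), Lyve1 (127 ± 69.4) and Cd163 (98.6 ± 30.9).

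Within each group, most of the abundant genes shared some high and low libraries. WT library 1 was the highest of the 8 libraries for 6 of 6, and KO library 1 the highest KO library for 5 of 6, the exception being Maf. KO library 3 was the lowest library for 4 of 6 (F13a1, Mrc1, Stab1 and Maf) and KO library 2 for Fcrls and Selenop. After each gene's log2 value was centred on its group's mean, which removes the difference between hosts, the mean of the 6 genes ranged from -0.52 in KO library 3 to 0.44 in KO library 1. Pairs were compared by the root mean square difference of these centred values over the 8 libraries. Selenop and Stab1 were the closest pair, at 0.21, followed by F13a1 and Mrc1, at 0.23. Fcrls and F13a1 were the farthest apart, at 0.55. The pair with the widest gap was thus the pair with the largest fitted differences between hosts among the abundant genes. A gene without any variation would lie 0.30 from the mean profile of the 6. Fcrls lay 0.32 and F13a1 0.28 from it, so neither followed it closely. The others lay between 0.12 (Mrc1) and 0.24 (Maf) from it.

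**Figure D3:**
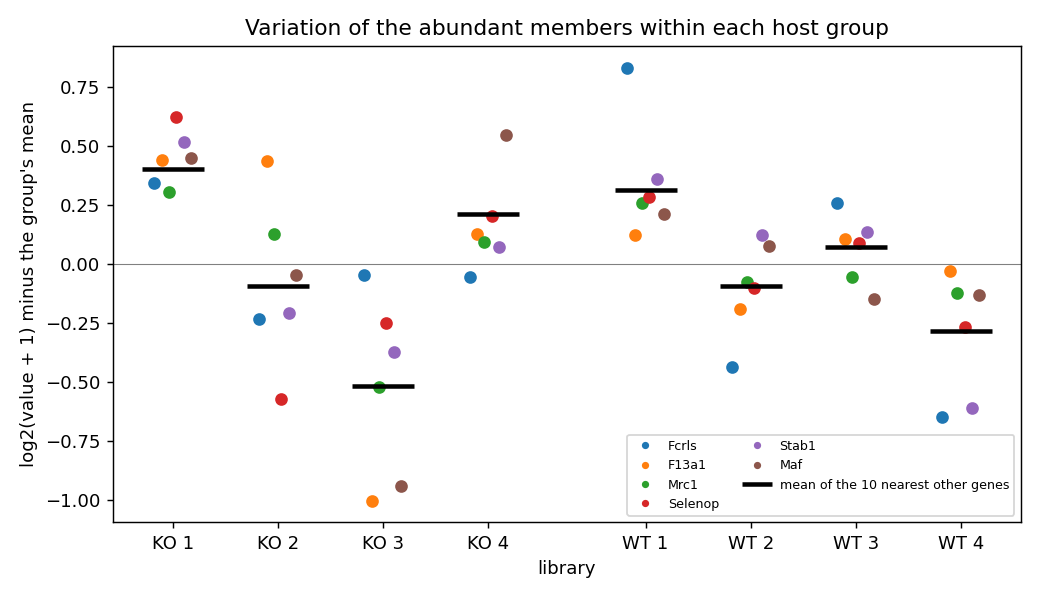
Log2(value + 1) minus the mean of the library's own host group, for the 6 abundant genes (colours) and for the mean of the 10 other genes with the nearest profile (black dashes). KO library 1 and WT library 1 are high and KO library 3 is low for most genes, whereas F13a1 (0.44) and Selenop (-0.57) part in KO library 2.

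The same centred profile was used to find other genes that varied alike, a choice that does not use the difference between hosts. Of 3315 other protein-coding genes with a mean of at least 1000 and at least 100 in every library, the 10 nearest were Tlr13, Pla2g7, Adgre1, Mmp14, Tgfbr1, Ccdc50, Nptn, Tbc1d14, Fads1 and Skap2. Their root mean square difference from the mean profile was 0.06 to 0.12, beside a median of 0.40 over the genes compared. Several are genes of macrophages in general: Tlr13 is an endosomal sensor of bacterial RNA, Adgre1 encodes F4/80, and Pla2g7 encodes a lipoprotein-associated phospholipase. For KO against WT, 0 of the 10 passed limma's adjusted threshold and 2 had an unadjusted p under 0.05, as did 3.49% of all genes in the lower direction. Tlr13 averaged 2176 ± 563 (KO) and 3364 ± 799 (WT), a log2 fold change of -0.64 (SE 0.25; adjusted p by limma 0.668). Adgre1 was at -0.54 (SE 0.24; adjusted p by limma 0.730). Pla2g7 was at 0.18 (SE 0.24), Mmp14, a membrane metalloprotease, at -0.03 (SE 0.26) and Ccdc50 at 0.07 (SE 0.21). The 10 had a median of -0.30, beside 0.02 over the genes compared, and 8 were below 0. Their KO and WT libraries overlapped in 10 of 10; of the genes compared, 2.47% had all KO libraries below all WT libraries.

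Transcripts of macrophages in general were followed through 16 genes that include Lyz2, Adgre1, Csf1r and Cd68. Their summed value was 108362 to 245308 in KO and 173663 to 276119 in WT, so the groups overlapped. Of the 16, 0 passed limma's adjusted threshold while 2 had an unadjusted p under 0.05, both lower in KO, beside 3.49% of all genes. Those were Adgre1 and Csf1r, the receptor of the macrophage growth factor CSF1 (log2 fold change -0.45, SE 0.21). The list's median was -0.33 with 13 of 16 below 0, beside 56.6% of all genes. That median was -0.21 without KO library 3 and -0.15 with library weights. Lyz2 was at -0.49 (SE 0.30) and Cd14, a co-receptor for bacterial lipids, at 0.42 (SE 0.22), neither past the threshold.

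Relative to that sum, the 6 abundant resident-type genes together stood at 22.9%, 25.6%, 25.9% and 22.6% in KO libraries 1 to 4. In WT libraries 1 to 4 they stood at 35.6%, 33.7%, 37.1% and 40.8%. The ratio was even within each group, with means of 24.2% ± 1.75 (KO) and 36.8% ± 2.98 (WT), although the macrophage sum itself ran from 108362 in KO library 3 to 245308 in KO library 1. The 6 genes were picked with the difference between hosts known, so the gap between groups is given as a description. Without Lyz2, which makes up most of the sum, the ratio was 82.4% to 96.1% in KO and 152% to 164% in WT. With each gene scaled to the mean log2 of the 16 genes, the log2 fold changes were -1.39 for Fcrls, -1.20 for F13a1, -0.83 for Stab1, -0.82 for Selenop, -0.72 for Maf and -0.58 for Mrc1. On that scale 4 of the 6 did not overlap between groups, Mrc1 and Maf being the exceptions, beside 1.09% of 16064 gene symbols with all KO libraries below all WT libraries. That scaling was chosen after the data had been seen and moved the median of all genes from -0.12 to 0.03. Its mean log2 weighs the 16 genes alike, so it includes the drop-out of the sparse gene Aif1. Aif1 ranged over 0 to 103 (KO) and 0 to 60.2 (WT), with a log2 fold change of 1.51 (SE 2.13). Scaling without Aif1 was not tried.

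**Figure D4:**
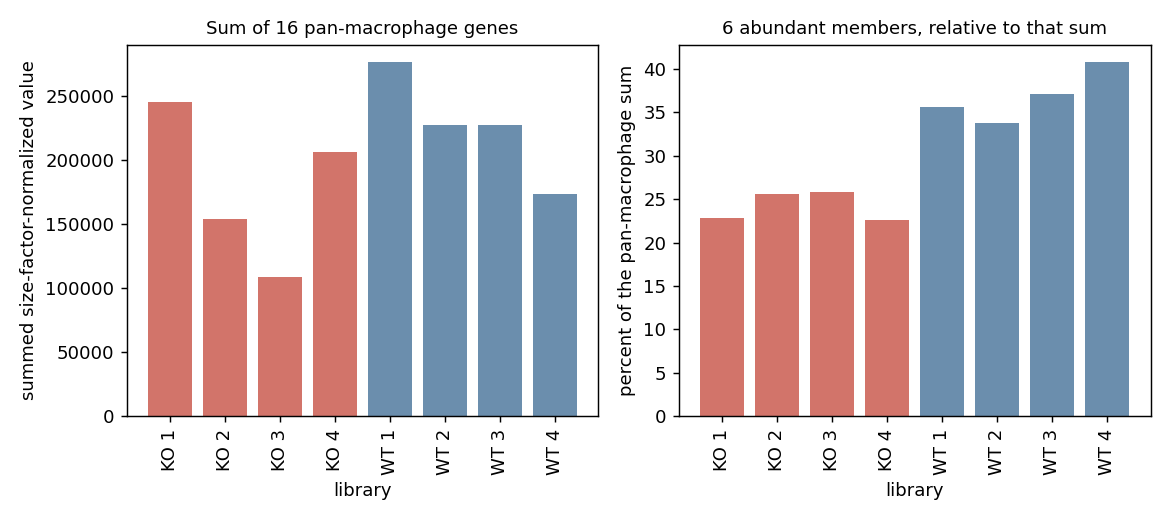
Summed value of 16 pan-macrophage genes per library (left) and summed value of the 6 abundant resident-type genes as a percentage of it (right), both from 0. The sums overlap between groups, whereas the percentage is 22.6 to 25.9 in KO and 33.7 to 40.8 in WT.

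A further 28 genes of resident-type macrophages were listed beside the 10, and 20 of them were abundant enough to be tested. Of these, 17 were below 0, beside 56.6% of all genes, and 0 passed limma's adjusted threshold. An unadjusted p under 0.05 was reached by 7, all lower in KO, beside 3.49% of all genes. The median was -0.84, or -0.49 without KO library 2. The 4 without overlap between groups, beside 2.09% of all genes, were Abca9, Dab2, Hpgd and Cbr2, the last pair named after their values were seen. Abca9, a lipid transporter of the ABC family, had KO values of 2716, 1070, 690 and 2570 and WT values of 5510, 4055, 4026 and 2801 (log2 fold change -1.40, SE 0.35; adjusted p by limma 0.154). Its libraries 1 and 4 were the high ones in KO. Dab2, an endocytic adaptor and the highest of the list, averaged 10647 ± 1634 (KO) and 16814 ± 2007 (WT), a log2 fold change of -0.67 (SE 0.19; adjusted p by limma 0.319). Hpgd, which degrades prostaglandins, ranged over 0 to 99.5 (KO) and 135 to 408 (WT), and Cbr2, a carbonyl reductase, over 16.5 to 153 (KO) and 192 to 495 (WT). Both are sparse genes. Cd36, a fatty acid and lipoprotein receptor, had the smallest p among the 3 above 0, with a log2 fold change of 0.74 (SE 0.51). Timd4, a defining receptor of long-lived resident macrophages, was listed at 0 in 7 of 8 libraries, and Vsig4 was at 0 to 52.0.

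Fcrls is best known from microglia, so genes of that type were set beside it. Of 10 tested, 9 were below 0, beside 56.6% of all genes, with a median of -0.38. By limma 0 passed the adjusted threshold and 2 had an unadjusted p under 0.05, both lower in KO, beside 3.49% of all genes. In 1 of the 10, Gpr34, all KO libraries lay below all WT libraries, beside 2.09% of all genes. Gpr34, a lysophosphatidylserine receptor, had KO values of 1580, 1872, 1070 and 1531 and WT values of 3841, 2559, 3234 and 2348, without overlap (log2 fold change -0.99, SE 0.25; adjusted p by limma 0.159). With library weights the adjusted p of Gpr34 was 0.0153. Tgfbr1, a TGF-beta receptor and the highest of the list, was at -0.35 (SE 0.22), and Siglech, a lectin shared with plasmacytoid dendritic cells, at 1.47 (SE 1.95), turning to -0.24 without WT library 1.

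Other macrophage states gave another picture. Of 13 genes of interferon-exposed and class II-rich macrophages, 12 were above 0, beside 43.4% of all genes. Of the 13, 4 passed limma's adjusted threshold, all higher in KO, beside 0.211% of all genes, and in 7 all KO libraries lay above all WT libraries, beside 2.02% of all genes. The list's median was 1.54. The 4 were the chemokine Cxcl9 and the class II genes H2-Aa, H2-Eb1 and Cd74, which dendritic and B cells also express. Cxcl9 rose from 140 to 336 in WT to 1016 to 3150 in KO, and Cd74 from 2637 to 4298 in WT to 7491 to 14585 in KO (adjusted p by limma 0.00139 and 0.00393). H2-Aa and H2-Eb1 rose by log2 fold changes of 1.80 and 1.73, but lost the call without KO library 4 (adjusted p by limma 0.0577 for each), and H2-Aa also without WT library 1 (0.0602). Il12b, a cytokine subunit, was the 1 gene of this list below 0. Of 5 tested B cell genes, 0 passed limma's adjusted threshold and 1 had an unadjusted p under 0.05, higher in KO, beside 3.21% of all genes. Igkc, the kappa light chain, ranged over 297 to 586 (KO) and 56.5 to 114 (WT), and Pax5, a B cell transcription factor, over 159 to 301 (KO) and 45.4 to 87.5 (WT), both without overlap. The summed B cell genes ran from 1310 to 2779 (KO) and 702 to 1526 (WT). Of 9 tested dendritic cell genes, 0 passed the threshold by limma and 1 had an unadjusted p under 0.05, higher in KO, beside the same 3.21%. It was Ccr7, a homing receptor of migrating dendritic cells and T cells, with 668 to 2244 (KO) and 261 to 615 (WT), without overlap. Summed dendritic cell genes ran from 1927 to 5311 (KO) and 1763 to 2538 (WT). The part of these cells in the class II values was not tested. KO library 3, the lowest for F13a1 and Maf, was also the lowest KO library for Cxcl9, Cd74, H2-Aa and H2-Eb1.

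Of 11 tested monocyte and inflammatory genes, 10 were above 0, beside 43.4% of all genes. By limma 0 passed the adjusted threshold and 2 had an unadjusted p under 0.05, both higher in KO, beside 3.21% of all genes. The median was 0.29. Il1b, the cytokine IL-1 beta, was at 0.75 (SE 0.25; adjusted p by limma 0.515), and its adjusted p was 0.0233 without KO library 3 and 0.0254 with library weights. Fn1, fibronectin, which factor XIII crosslinks, was the 1 gene below 0 and the highest of the list, at -0.32 (SE 0.20), with KO values of 34540 to 40557 all below WT values of 42000 to 52638. Of 11 tested genes of lipid-associated tumour macrophages, 9 were below 0, beside 56.6% of all genes, with a median of -0.30. By limma 0 passed the adjusted threshold. An unadjusted p under 0.05 was reached by 1 lower and 1 higher in KO, beside 3.49% and 3.21% of all genes. In 1 of the 11, Spp1, all KO libraries lay below all WT libraries, beside 2.09% of all genes. Spp1, osteopontin, averaged 8364 ± 1991 (KO) and 13618 ± 1411 (WT), without overlap, a log2 fold change of -0.73 (SE 0.20; adjusted p by limma 0.267). Arg1, arginase, was at 0.46 (SE 0.21).

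**Figure D5:**
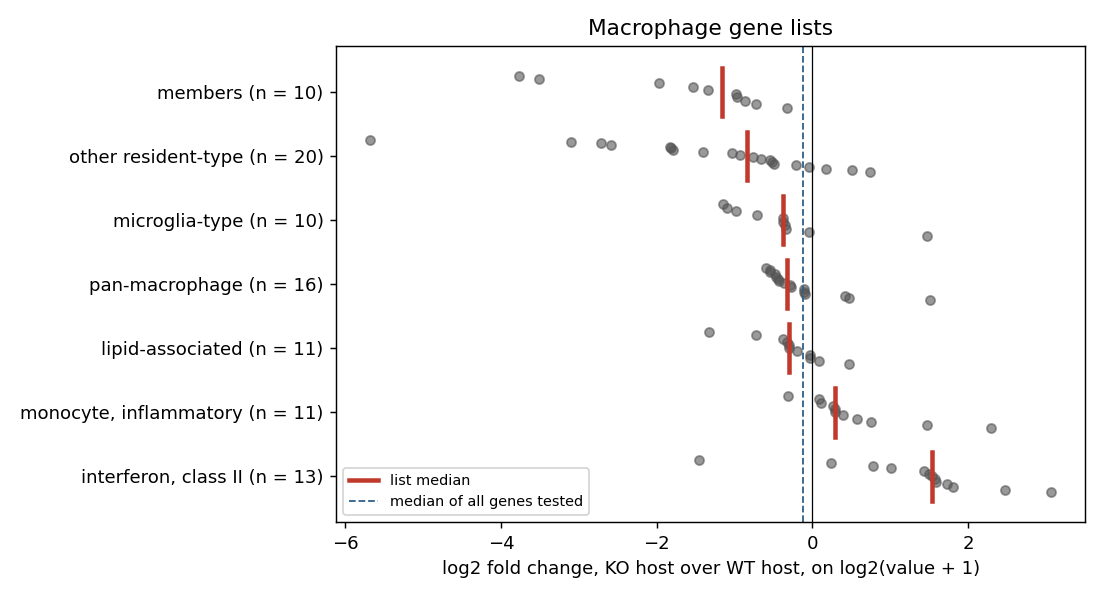
Fitted log2 fold change of KO over WT for the tested genes of 7 macrophage lists; each point is 1 gene, red bars are list medians and the dashed line is the median of all genes (-0.12). Medians run from -1.16 for the 10 resident-type genes and -0.84 for the further resident-type list to 1.54 for the interferon and class II list.

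Relatives and partners of the 10 genes were listed as well. For Maf, the small partner Mafk was at 0.97 (SE 0.36; adjusted p by limma 0.642), not past the threshold. Among 8 tested Fc receptor and Fc receptor-like genes, 4 were below 0, beside 56.6% of all genes. Fcgr4, an activating IgG receptor, averaged 1697 ± 602 (KO) and 576 ± 136 (WT; adjusted p by limma 0.0918), with KO values of 839 to 2250 all above WT values of 400 to 725. Its adjusted p was 0.0133 without KO library 3, 0.0108 with library weights, 0.0417 with a pseudocount of 10 and 0.0442 with robust hyperparameters. The inhibitory receptor Fcgr2b, the most abundant of them, was at -0.19 (SE 0.23). Of 10 tested coagulation and matrix genes, 3 were below 0. Tgm2, the tissue transglutaminase related to F13a1, was at 0.58 (SE 0.27). Of 21 other selenoprotein and selenium genes, 11 were below 0 with a median of -0.12, the thioredoxin reductase Txnrd1 being at 0.50 (SE 0.26). Among scavenger and lectin relatives 3 of 9 tested were below 0, among haem and iron genes 6 of 8, among folate genes 7 of 11, among hyaluronan genes 4 of 9 and among Pf4's relatives and partners 4 of 6. Of 22 upstream cytokines, receptors and transcription factors, 11 were below 0, with a median of -0.03. In these 10 lists 0 genes passed limma's adjusted threshold. Those with an unadjusted p under 0.05 were all higher in KO, beside 3.21% of all genes. They were 4 upstream regulators, 3 MAF family and partner genes, 2 Fc receptor genes, 1 coagulation gene and 1 Pf4 partner. Some genes are in more than 1 list.

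Other cell types could also supply some of these transcripts. Of 9 platelet genes, 4 were listed, with a summed value of 0 to 231 (KO) and 0 to 136 (WT). Of 7 lymphatic endothelial genes, 6 were listed, with a summed value of 2295 to 3920 (KO) and 2430 to 4231 (WT). The highest of them, Pdpn, ranged over 1713 to 3384 (KO) and 1912 to 3543 (WT). The defining factor Prox1 ranged over 0 to 9.09 (KO) and 0 to 64.3 (WT). Blood endothelial genes summed to 894 to 1874 (KO) and 989 to 2438 (WT). Of 8 tested, 6 were below 0, beside 56.6% of all genes, with a median of -0.65. By limma 0 of them passed the adjusted threshold and 0 had an unadjusted p under 0.05. None of 6 hepatocyte genes was among the genes listed. The 12 CD8 T cell genes summed to 21992 to 46590 (KO) and 7863 to 26535 (WT). Of the 12, 4 had an unadjusted p under 0.05 by limma, all higher in KO, beside 3.21% of all genes, and 0 passed limma's adjusted threshold. Of 6 tested genes of CD4 and regulatory T cells, which can express Maf, 4 passed it, all higher in KO, beside 0.211% of all genes (Ctla4, Il2ra, Ikzf2 and Icos, some of which activated CD8 T cells also express), with sums of 9082 to 10558 (KO) and 2501 to 4648 (WT). Without KO library 4 all 4 lost the call (adjusted p by limma 0.0577 to 0.264), and without WT library 1 Ctla4, Ikzf2 and Icos did (0.0509 to 0.241). Other single libraries ended the call of Il2ra (KO library 1), Icos (KO library 2) and Ikzf2 (KO libraries 1 and 2, WT libraries 2 and 3). Foxp3 averaged 12.7 (KO) and 5.48 (WT). Red cell genes, left after lysis of red cells, summed to 0 to 1.30 (KO) and 101 to 256 (WT), without overlap. A single fragment was worth 25.5 to 63.5 in WT libraries and 38.1 to 142 in KO libraries, so these sums rest on few molecules. Fibroblast genes summed to 11677 to 27565 (KO) and 15432 to 25565 (WT), a sum that holds Thy1, which T cells also express (5922 ± 1530 in KO, 3622 ± 1835 in WT). Of these 12 genes, 9 were below 0, as were the resident-type genes, beside 56.6% of all genes, with a median of -0.55. By limma 0 passed the adjusted threshold. An unadjusted p under 0.05 was reached by 3 lower in KO and by 1 higher, Thy1, beside 3.49% and 3.21% of all genes. The 3 were the matrix genes Col6a2 (-1.62, SE 0.41) and Postn (-1.33, SE 0.35) and the receptor Pdgfrb (-1.18, SE 0.40). In 1 of the 12, Pdgfrb, all KO libraries lay below all WT libraries, beside 2.09% of all genes. The part of these cells in the values of the 10 genes was not tested.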

How the data were processed

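RNA from sorted tumour CD8 T cells was measured in 8 libraries, 4 per host genotype. The authors deposited 1 normalized signal value for each gene and library, which the authors obtained by scaling read counts with DESeq2, per the table's name. The tools used by the authors, per the submitters' processing notes, were STAR 2.7.8a, Partek and DESeq2, with build mm39 and no role given; the counter and strand setting are not given in the sources used here. Among values worth at most 500 reads, 81.7% to 88.1% per library were whole multiples of the smallest step (tolerance 0.02 reads). Whole reads were therefore not taken as recovered, and count models were left out. Depth is the column sum divided by that step. Fragment numbers were estimated from drop-out: genes averaging 20 to 500 elsewhere but under 3 reads in a library, taken as Poisson zeros. Small nuclear and nucleolar RNA genes, 280 in all, were left out of that estimate.

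Values were used as log2(value + 1). Using limma 3.58.1 (eBayes with trend; R 4.3.3), genes averaging 10 or more were compared, KO against WT, two-sided, with Benjamini-Hochberg adjustment over 16120 genes at 0.05. Fold changes are on the log2(value + 1) scale, and those of the sparse members depend on the pseudocount. With a pseudocount of 10 in place of 1, Cd163 moved from -3.8 to -3.1 and Lyve1 from -3.5 to -2.6. Folr2 moved from -2.0 to -1.2, whereas Pf4 went the other way, from -0.3 to -0.6. The printed values of these genes are therefore not lower bounds on the size of the difference. Exon lengths are unions from GENCODE M21 (GRCm38), used only as lengths. Gene positions are those of the authors' table, with 1 taken off the stop. Promoter sequences are from RefSeq on GRCm38.p6.

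The members and the gene lists were chosen with earlier results of these data known. Outside the members, genes were named by rule: in a list, the highest mean, the smallest p in each direction and any gene past the threshold, and the 10 genes with the nearest centred profile; not every gene the rule gives is reported here. Genes named beyond that rule (Hpgd, Cbr2, Csf1r, Timd4, Vsig4, Prox1, Foxp3, Pax5, Postn, Pdgfrb and Cd8a) were chosen after their values were seen. Replicates are biological per the series' design text. Same-numbered KO and WT libraries were not taken as pairs. Alternatives covered the pseudocount, the minimum mean, 3 scalings, a replicate block, library weights, robust hyperparameters and each library left out. Scaling to the pan-macrophage genes and a fragment covariate were added after seeing the data.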

Additional observations from a re-analysis of the deposited data

Results flagged for a closer look

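Among 26 sets of 4 libraries examined (each member and 3 sums or ratios, in each group), 2 held a library far from the other 3 by the gap relative to the group's range, and chance gives about 1 in 20. Mrc1 in WT library 1, at 19912, stood above 15259 to 16006 in the other WT libraries. Cd163 in KO library 1, at 472, stood above 2.20 to 63.9 in the other KO libraries.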

How the results depend on the processing

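The log2 fold changes of 9 of the 10 members stayed below 0 under each of 20 alternatives, 8 of which leave out 1 library; that of Pf4 did so under 14. Medians of the members (-1.33 to -0.88), of the further resident-type genes (-1.10 to -0.49) and of the pan-macrophage genes (-0.44 to -0.15) moved by up to 0.28, 0.35 and 0.18; the SD between replicates of each list's mean log2 value, pooled over groups, was 1.03, 0.93 and 0.44. Counts of genes past limma's adjusted threshold, 4 lower and 34 higher, moved by over 1.5 times under several. With a minimum mean of 50 they were 0 lower (385 at an unadjusted p under 0.05) and 15 higher. Quantile normalization gave 7 lower, a pseudocount of 10 gave 59 higher, and library weights gave 18 lower and 94 higher. Scaling to the pan-macrophage genes gave 0 lower (313 unadjusted). Leaving out 1 library gave 0 (without KO library 4 or WT library 1; 607 and 351 unadjusted) to 9 lower (without WT library 4), and 7 (without KO library 4) to 61 higher (without WT library 4).

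With a replicate block the counts were 0 lower and 0 higher (571 and 530 unadjusted), so no call was kept. The adjusted p of Cxcl9, H2-Aa, H2-Eb1, Cd74, Ctla4, Il2ra, Ikzf2 and Icos was 0.0513 to 0.0926. Same-numbered KO and WT libraries had correlations of their deviations of 0.0668 to 0.253 over 3515 genes, and not every library correlated best with its own number, so the numbers were not taken as pairs.

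Of 759 values of 38 named genes outside the members, 713 kept direction and side of the threshold and 7 changed direction. Mmp14 turned to 0.045 with library weights and 0.12 with pan-macrophage scaling, and Ccdc50 to -0.0032 with quantile normalization. Without 1 library, Mmp14 ranged from -0.19 to 0.16, Ccdc50 from -0.10 to 0.23 and Siglech from -0.24 to 3.30. H2-Aa also lost its call with a minimum mean of 50 (0.0525) and robust hyperparameters (0.157), Ikzf2 with upper-quartile scaling (0.0507), equal sums without small RNA (0.0561), a minimum mean of 50 (0.0608) and pan-macrophage scaling (0.190), and Icos with a minimum mean of 50 (0.0545). Dab2 passed with quantile normalization (0.0440). The cause was not tested. The 4 sparse members rest on few estimated fragments.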
